A study of Rattus norvegicus with 10 samples.

Results

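The circadian clock genes described here are 10 genes of the clock in RPE-J cells, a rat (Long-Evans) retinal pigment epithelium line transformed with SV40: Per1, Per2, Per3, Cry1, Cry2, Arntl, Clock, Nr1d2, Dbp and Bhlhe40. They were found by gene name in the tables of pairs of libraries, and 10 of 10 were measured in all 10 libraries, among 14119 genes listed. Cells received 100 nM PNU-282987 (PNU hereafter), which activates the α7 type of nicotinic acetylcholine receptor, for 30 min, 1 h, 3 h, 8 h or 12 h. Others received 1 µM nicotine as an activating control, 100 nM MLA (in this field methyllycaconitine, an antagonist of that receptor) as the negative control, each for 1 h or 12 h, or the vehicle DMSO for 12 h. Each of these 10 conditions has 1 library of polyadenylated RNA, all from the same line grown in serum at 33 °C, and the vehicle has no library at an earlier time. Differences between libraries therefore have no replicate check, and intervals given with them cover counting error only.

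The mammalian clock is a feedback loop of transcription. BMAL1 (the product of Arntl) and CLOCK bind E-boxes and activate the Per and Cry genes, whose proteins return to the nucleus and repress that activation. REV-ERB proteins, one of which is encoded by Nr1d2, repress Arntl, and DBP drives genes with D-boxes. Bhlhe40 encodes DEC1, a repressor that binds E-boxes itself and that also responds to serum, hypoxia and other stimuli. In the retina and its pigment epithelium the clock is known for timing the shedding and uptake of photoreceptor outer segments. Cells in culture run their clocks out of step with each other unless a stimulus such as a serum change sets them together.

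Bhlhe40 was the member with the largest differences between libraries, and the core genes of the loop were close to the typical gene. Levels below are normalised reads, that is, reads divided by 1 size factor per library set over all 10 libraries. They serve to compare 1 gene between libraries and not 2 genes. RNA came from whole flasks, so less of a gene's RNA per cell and fewer cells that express it cannot be told apart. The highest level exceeded the lowest 2.25-fold for Bhlhe40 (95% counting interval 2.10 to 2.41), a range larger than that of 97% of genes. Next were Nr1d2 at 1.69-fold (1.51 to 1.88) and Per3 at 1.66-fold (1.37 to 2.02). The other 7 members lay between 1.20-fold for Arntl and 1.47-fold for Clock and Cry2, while the median over all genes with a mean level of at least 50 was 1.38-fold. Ranges of 1.5-fold or more were thus found in 3 of 10 members and in 31.9% of the 11190 genes, so the count of members was near the background. At 2-fold it was 1 of 10 members against 5.99% of genes. Without nicotine 1 h and PNU 3 h, 2 of 10 members passed 1.5-fold, against 15.7% of genes.

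**Figure D1:**
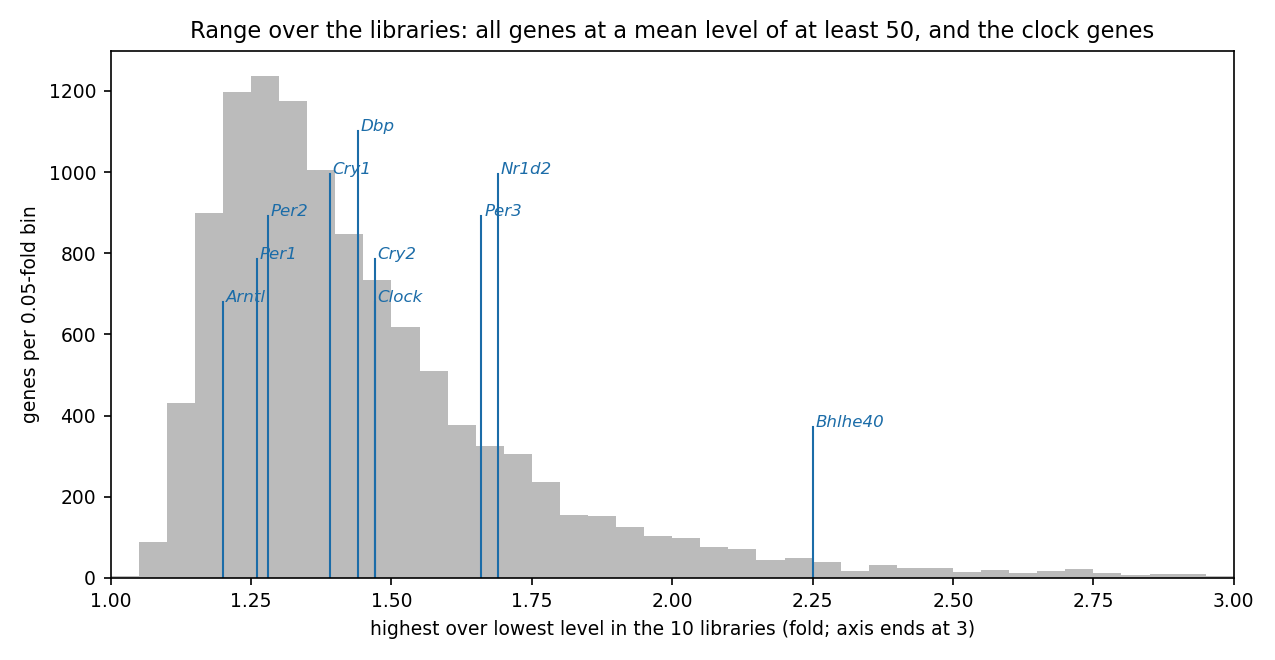
Highest over lowest level in the 10 libraries (fold) for all genes with a mean level of at least 50, as a histogram in bins of 0.05-fold, with a line for each clock gene (line height has no meaning). Bhlhe40 lies at 2.25-fold in the upper tail, and Arntl, Per1 and Per2 lie below the median of 1.38-fold.

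Over all genes, nicotine 1 h and PNU 3 h stood apart from the other libraries. At least 1.5-fold differences at a mean level of 50 or more numbered 960 genes for nicotine 1 h and 564 for PNU 3 h, as medians over the 9 pairs of each library, against 152 to 367 for the others. DMSO 12 h was closest to PNU 30 min, with 91 such genes. Reads in listed genes ranged from 15220638 in PNU 8 h to 31510333 in MLA 12 h. Of 12 pigment epithelium markers, 6 were measured (Best1, Krt8, Pmel, Mitf, Rdh5 and Rlbp1), with a summed level between 9296 and 11607, and Rpe65, Tyr, Tyrp1, Otx2, Ttr and Krt18 were not analysed here. Of the fibroblast markers 1 of 5 was measured, Col1a1, at 45410 in nicotine 1 h and 48450 in PNU 3 h against 21570 to 32250 in the rest. Immune markers (2 of 4) summed to 192 to 260, and the neuronal list was measured through 1 of 3 genes, Tubb3, at 244 to 330.

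Promoters are shown for the pair of members whose RefSeq window holds an E-box (CACGTG) or a D-box (TTANGTAA), since these elements link the loop to its targets. Windows from 250 bases before to 50 after the annotated start (build GRCr8) were searched on both strands, and the 250 bases before the start are printed 5′ to 3′ with matches in capitals. The Bhlhe40 window (chr4:143174200-143174449, plus strand) holds an E-box beginning 220 bases before the start. The Per2 window (chr9:99496994-99497243, minus strand) holds a D-box 192 bases before the start, in capitals first, and an E′-box (CACGTT) 62 bases before it.
Bhlhe40: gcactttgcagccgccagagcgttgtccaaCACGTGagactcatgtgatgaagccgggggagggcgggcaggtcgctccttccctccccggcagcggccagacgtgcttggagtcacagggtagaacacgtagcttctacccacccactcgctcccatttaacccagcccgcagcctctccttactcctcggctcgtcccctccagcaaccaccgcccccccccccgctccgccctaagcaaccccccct
Per2: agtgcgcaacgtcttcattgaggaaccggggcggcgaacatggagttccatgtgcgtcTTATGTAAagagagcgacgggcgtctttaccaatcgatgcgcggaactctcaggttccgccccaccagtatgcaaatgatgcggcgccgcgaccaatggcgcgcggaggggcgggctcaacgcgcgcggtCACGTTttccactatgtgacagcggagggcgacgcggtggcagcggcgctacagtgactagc
Of 33469 such windows in the RefSeq table, 6.42% hold an E-box, 2.24% a D-box and 4.83% an E′-box. Among the other members, Cry2 has an E′-box on the minus strand 212 bases before its start. Arntl (Bmal1 in RefSeq) has AAGTAGGTCA, a match to the element of the ROR and REV-ERB receptors, 19 bases before its start. That element is in 0.481% of windows. The windows of Per1, Per3, Clock, Nr1d2 and Dbp hold none of these letters, nor the cAMP response element TGACGTCA, which is in 1.83% of all windows. Cry1 was not searched. A match in letters is a description of the window and does not show that a factor binds there.

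Arntl and Clock encode the activating pair of the loop. Arntl had the narrowest range of the members, from 531 in PNU 3 h to 639 in nicotine 12 h, and counting intervals of neighbouring libraries overlapped along its whole order of levels. Its range was larger than that of 13.3% of genes.

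Clock was at 838 in DMSO 12 h, and at 886, 898, 863, 1002 and 815 in PNU from 30 min to 12 h. It was at 722 in nicotine 1 h, 1061 in nicotine 12 h, 1040.1 in MLA 1 h and 897 in MLA 12 h. Nicotine 1 h was thus the lowest library and nicotine 12 h the highest, a 1.47-fold difference (1.34 to 1.61). Without nicotine 1 h and PNU 3 h the range of Clock was 1.30-fold.

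Among the repressors, Per1 and Per2 were nearly level. Per1 encodes a period protein whose gene is known for rapid induction by cAMP, glucocorticoid and serum signals. Its level was 554 in PNU 30 min, 553 in PNU 1 h and 516 in DMSO 12 h, and lowest in nicotine 12 h at 439.6. The library earliest after PNU was 1.07-fold above DMSO 12 h (0.95 to 1.22), an interval that includes no difference. Per2, its close relative, ranged from 274 in MLA 1 h to 351.5 in PNU 30 min, 1.28-fold (1.09 to 1.51). Neither gene passed 1.5-fold between any of the 45 pairs of libraries.

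Per3 encodes another period protein, one that is dispensable for rhythm in mice. Its level was 245 in DMSO 12 h and 275, 282, 253.5, 210.1 and 202 in PNU from 30 min to 12 h. It was 213 in nicotine 1 h, 236 in nicotine 12 h, 170.2 in MLA 1 h and 226 in MLA 12 h. MLA 1 h was the lowest library, 1.66-fold below PNU 1 h (1.37 to 2.02) and 1.61-fold below PNU 30 min (1.32 to 1.98). These were the only pairs in which Per3 passed 1.5-fold, and its counting intervals overlapped between all neighbours in order of level.

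Cry1 and Cry2 encode cryptochromes, the strongest repressors of BMAL1 and CLOCK. Cry1 was lowest in PNU 1 h at 421 and highest in PNU 3 h at 584, next to 579 in MLA 1 h. It was 1.39-fold higher in PNU 3 h than in PNU 1 h (1.22 to 1.58) and 1.38-fold higher in MLA 1 h than in PNU 1 h (1.21 to 1.56). Cry2 was lowest in nicotine 12 h at 360.2, where it was 1.38-fold below DMSO 12 h (1.20 to 1.58), and highest in PNU 30 min at 528. Neither cryptochrome gene passed 1.5-fold in any pair.

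Nr1d2, which encodes REV-ERBβ, differed most in nicotine 1 h. Its level was 712 in DMSO 12 h and 764, 788, 592, 560.4 and 612 in PNU from 30 min to 12 h. It was 468 in nicotine 1 h, 728 in nicotine 12 h, 756.5 in MLA 1 h and 601 in MLA 12 h. In order of level, the 1 step at which neighbouring counting intervals did not overlap was that from PNU 12 h to DMSO 12 h, with 5 libraries on each side of it. Nicotine 1 h was the lowest, 1.69-fold below PNU 1 h (1.51 to 1.88) and 1.62-fold below MLA 1 h (1.44 to 1.82). All 5 pairs in which Nr1d2 passed 1.5-fold include nicotine 1 h, and without that library and PNU 3 h its range was 1.41-fold. Nicotine 1 h also held more Col1a1 RNA than 8 of the other libraries, as given above, and the part of that difference in the level of Nr1d2 was not tested.

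Dbp encodes the D-box activator and is a direct target of BMAL1 and CLOCK. It ranged from 333 in nicotine 12 h and 339.6 in PNU 8 h to 479 in PNU 1 h, 1.44-fold (1.25 to 1.65). At 12 h it was at 459 in DMSO and 455 in PNU, against 333 in nicotine and 359.7 in MLA. The level in DMSO 12 h was 1.38-fold above nicotine 12 h (1.19 to 1.59) and 1.28-fold above MLA 12 h (1.12 to 1.46). Dbp passed 1.5-fold in no pair.

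Bhlhe40 was highest in the vehicle library and lowest in nicotine 12 h, MLA 12 h and nicotine 1 h. Its level was 2619 in DMSO 12 h and 2335, 2126, 1987, 1441 and 1395 in PNU from 30 min to 12 h. It was 1204 in nicotine 1 h, 1162 in nicotine 12 h, 1868 in MLA 1 h and 1186 in MLA 12 h. Within the PNU series each later library was below the one before, and counting intervals overlapped between PNU 1 h and 3 h and between PNU 8 h and 12 h. PNU 30 min was 1.67-fold above PNU 12 h (1.57 to 1.78), and Bhlhe40 was the 1 member of 10 that passed 1.5-fold among the 5 PNU libraries, where 14.8% of all genes did. Nicotine 1 h stood out from PNU 1 h and MLA 1 h, being 1.77-fold (1.65 to 1.89) and 1.55-fold (1.44 to 1.67) lower, and was close to nicotine 12 h and MLA 12 h. In order of level, 4 of the 9 steps between neighbours had counting intervals that did not overlap, the uppermost being PNU 30 min to DMSO 12 h.

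**Figure D2:**
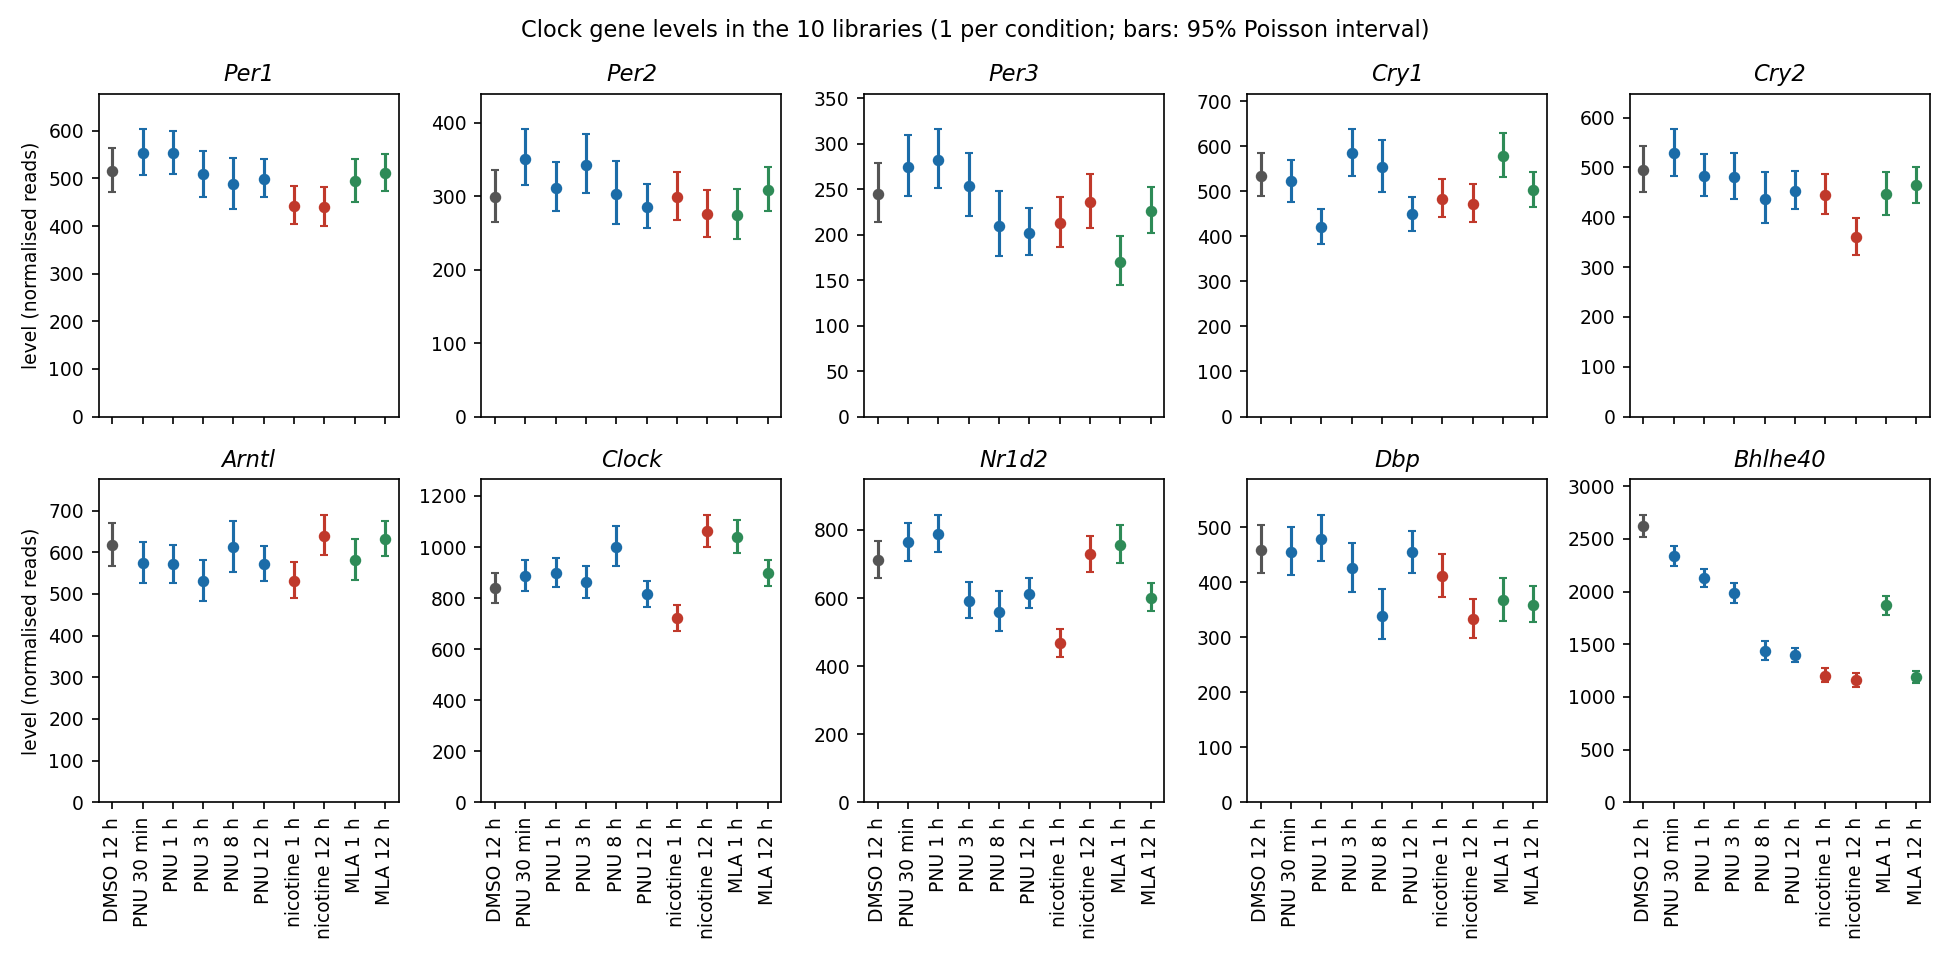
Level (normalised reads, linear axis from 0) of each clock gene in the 10 libraries, 1 point per library with its 95% Poisson interval for counting error; grey is DMSO, blue PNU, red nicotine and green MLA. Bhlhe40 goes from 2619 in DMSO 12 h to 1162 in nicotine 12 h, and the other genes stay within 1.69-fold.

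Over all 45 pairs of libraries, 27 of 450 values of the members were past 1.5-fold, and 3.96% of the values of all genes were. Bhlhe40 gave 20 of the 27, Nr1d2 5 and Per3 2, so 7 members gave 0. The pairs share libraries, and the count is a description of 10 libraries. Without nicotine 1 h and PNU 3 h, 15 values remained over 28 pairs, and without DMSO 12 h, 21 over 36 pairs. The share of all genes was not pooled for these smaller sets of pairs, so the 3.96% does not apply to them.

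Against the vehicle at 12 h, Bhlhe40 was the member that differed under each compound. It was 1.88-fold lower with PNU (1.76 to 2.0), 2.25-fold lower with nicotine (2.10 to 2.41) and 2.21-fold lower with MLA (2.07 to 2.35). In each of these comparisons 1 of 10 members was at least 1.5-fold lower and 0 were higher. The share of genes lower by that much was 1.7% for PNU, 1.26% for nicotine and 0.992% for MLA, and the share higher was 1.08%, 1.17% and 1.16%. The 3 comparisons share the DMSO library, so its level enters all of them. The median log2 difference of the members was -0.12 for PNU, -0.15 for nicotine and -0.09 for MLA, where the medians over all genes were within 0.01 of 0. With PNU all 10 members were below the vehicle, 9 of them by less than 1.5-fold.

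Of the 16 immediate early genes on the list, which respond to serum and cAMP within minutes, 12 were also highest in the vehicle library. Among these, Egr2 and Egr3 had mean levels of only 42.08 and 15.15. The share of all genes highest in that library was not counted. Nr4a2, Nr4a3, Sik1 and Crem were highest in other libraries, Sik1 at 628 in PNU 3 h against 438 in DMSO 12 h. All 16 were measured, and their summed level was 28078 in DMSO 12 h, 18362 in PNU 30 min and 11877 to 15998 in the other 8 libraries. Of the 12 at a mean level of at least 50, those at least 1.5-fold lower than in DMSO 12 h numbered 9 with PNU, 10 with nicotine and 8 with MLA at 12 h. Of all genes, 1.7%, 1.26% and 0.992% were lower by that much. Egr1, a zinc finger factor of this class, had a range of 8.19-fold (7.57 to 8.87), from PNU 1 h up to DMSO 12 h. The part of these genes in the level of Bhlhe40 was not tested. Without DMSO 12 h the range of Bhlhe40 was 2.01-fold. The immediate early sum adds genes of unlike level and was lowest in PNU 1 h, where Egr1 was at 667 against 5461 in DMSO 12 h. Bhlhe40 in PNU 1 h was at 2126, below PNU 30 min and DMSO 12 h only, and a link with that sum was not tested.

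Models over 7 libraries (DMSO 12 h and the 1 h and 12 h libraries of each compound) asked whether time, type of compound or vehicle went with a difference larger than the spread left over. That spread is what compound and time do not account for together, not the spread of repeated cultures, since no condition was repeated. None of the 13323 genes passed a limma adjusted p of 0.05 in any of the 3 contrasts, which is 0% in each direction. Unadjusted p was under 0.05 for 103 genes between times, 66 between agonists and MLA, and 235 between compounds and vehicle. Each count is below the share of 0.05 that evenly spread p-values would give. That 0 genes passed therefore does not show that no gene differed.

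Between 12 h and 1 h, averaged over the compounds, Bhlhe40 had a log2 difference of -0.44 (95% limma interval -0.80 to -0.08; limma unadjusted p = 0.0241, adjusted p = 1). The difference was -0.61 with PNU and -0.66 with MLA, and with nicotine it was -0.05 (-0.16 to 0.06). Fitted without either nicotine library the value was -0.63, with limma adjusted p-values of 2.8e-13 and 2.48e-13. In the same fits Nr1d2 was at -0.35 (limma adjusted p-values of 0.0114 and 0.0142), and 460 and 445 of all genes passed. Those fits keep 1 residual degree of freedom and take the spread to be common to all genes, so these p-values rest on that assumption. With all 7 libraries the other 9 members lay between -0.14 for Dbp and 0.13 for Arntl, Nr1d2 at -0.02, with intervals that include 0. Differences for these 9 of up to about 0.30 to 0.51 on the log2 scale on either side of the estimates are inside the intervals.

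Between the vehicle and the mean of the compounds at 12 h, Bhlhe40 had a log2 difference of -1.07 (-1.58 to -0.56; limma unadjusted p = 0.00173, adjusted p = 0.992). The sign was the same with each of the 3 compounds, and the vehicle is 1 library that was assumed to vary like the others. Leaving out nicotine 1 h gave -1.07 again. With all 12 h libraries present, this estimate cannot depend on the 1 h libraries. Without nicotine 12 h the value was -1.27, in the same kind of fit with 1 residual degree of freedom. Without nicotine 12 h, the fit takes nicotine at 12 h from its 1 h library and the time difference of PNU and MLA. Nr1d2 was at -0.47 in that fit, while its measured level was 728 in nicotine 12 h and 712 in DMSO 12 h. With all 7 libraries Nr1d2 was at -0.14 (-0.87 to 0.58), and of the other members Dbp was at -0.27 (-0.73 to 0.18), Cry2 at -0.23 (-0.69 to 0.23) and Cry1 at -0.17 (-0.62 to 0.27). In all, 9 of 10 members were below 0 with a median of -0.15, where the median of all genes was 0.01.

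Between the agonists and MLA, averaged over 1 h and 12 h, no member had an interval that left out 0. Cry1 was at -0.24 on the log2 scale (-0.57 to 0.09; limma unadjusted p = 0.125) and Per3 at 0.24 (-0.27 to 0.74; limma unadjusted p = 0.301). At 1 h Cry1 was 579 with MLA, 421 with PNU and 483 with nicotine, and at 12 h 502, 448 and 472. Nicotine was given at another concentration than PNU and MLA, so in this contrast compound and concentration cannot be told apart. Leaving out nicotine 12 h gave limma adjusted p-values under 0.05 for Clock (-0.34, adjusted p = 0.000609), Nr1d2 (-0.33, adjusted p = 0.00267), Bhlhe40 (-0.21, adjusted p = 0.0274) and Cry1 (-0.25, adjusted p = 0.0493). With that library left out, 3489 of all genes passed as well.

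**Figure D3:**
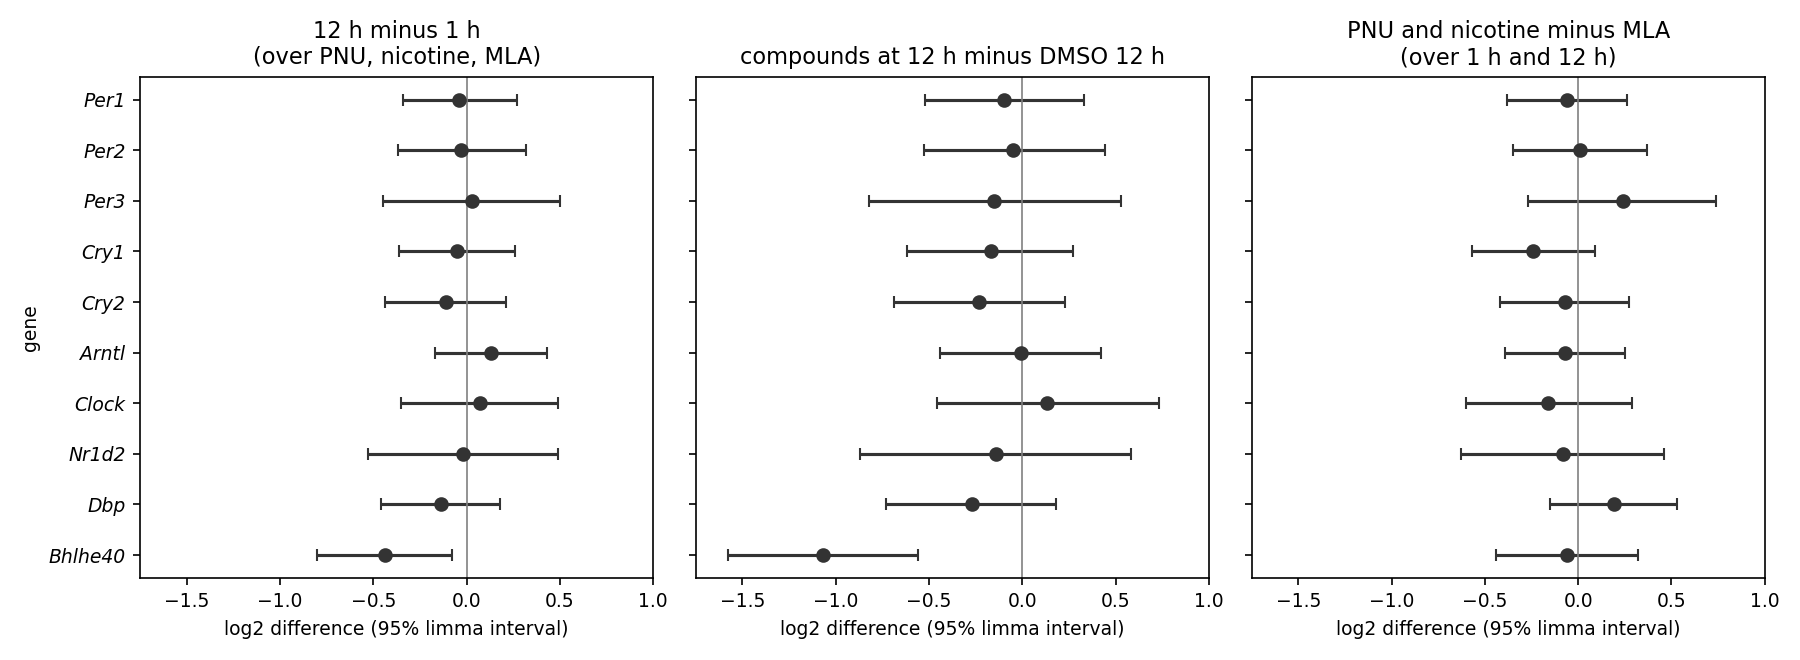
Log2 difference of each clock gene in the 3 contrasts, with 95% limma intervals, from 7 libraries. Only Bhlhe40 has intervals that leave out 0, at -0.44 between times and -1.07 against the vehicle, and 0 genes passed an adjusted p of 0.05.

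Behind the averages over compounds, some members differed in opposite directions. Nr1d2 was 1.56-fold higher at 12 h than at 1 h with nicotine (1.39 to 1.74), and 1.29-fold (1.17 to 1.42) and 1.26-fold (1.14 to 1.39) lower with PNU and MLA. Clock was 1.47-fold higher at 12 h with nicotine (1.34 to 1.61), and 1.10-fold lower with PNU (1.01 to 1.21) and 1.16-fold lower with MLA (1.07 to 1.26). Both differences with nicotine involve nicotine 1 h, the library that stood apart over all genes. Per3 was 1.40-fold lower at 12 h with PNU (1.18 to 1.66) and 1.33-fold higher with MLA (1.09 to 1.62).

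By the size rule, 1 member was lower at 12 h with PNU (Bhlhe40; 1.14% of genes were lower), 1 was higher with nicotine (Nr1d2; 9.46% were higher), and 1 was lower with MLA (Bhlhe40; 0.706% were lower). The share of genes for nicotine was thus close to that of the members. These differences between compounds have 1 library behind each value and were not tested.

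**Figure D4:**
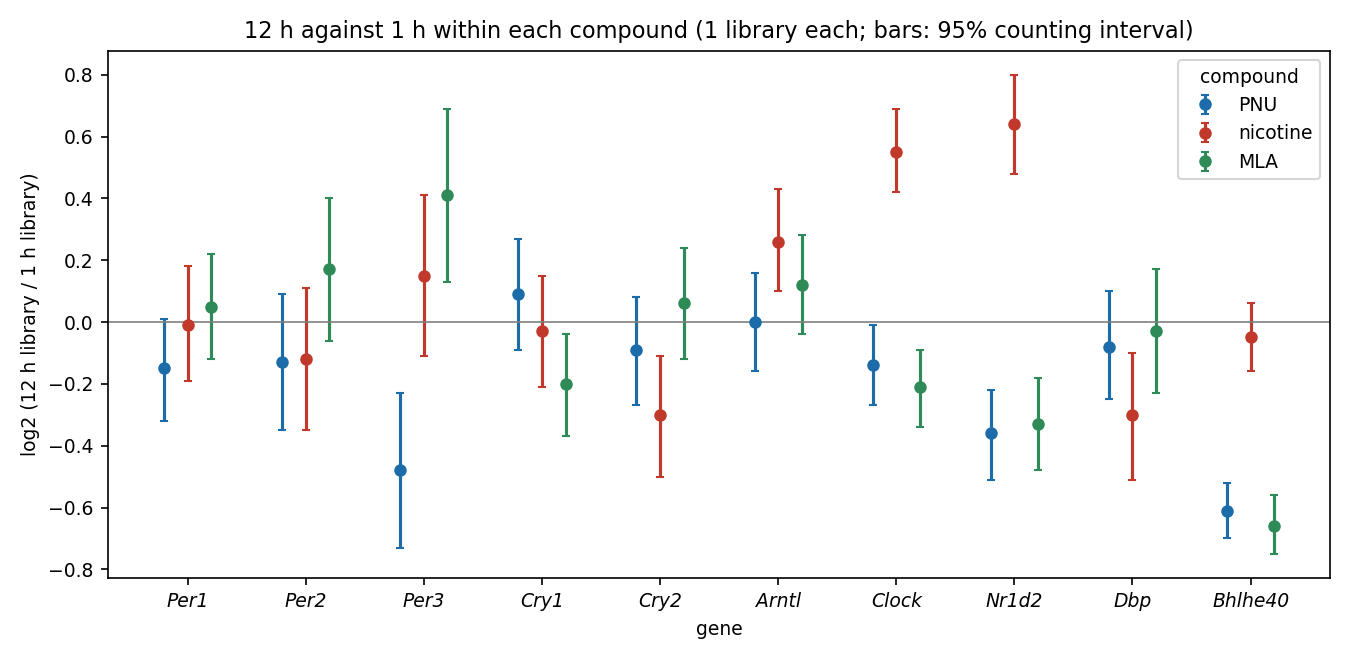
Log2 of the level at 12 h over the level at 1 h for each clock gene with PNU (blue), nicotine (red) and MLA (green), with 95% counting intervals. Nr1d2 and Clock lie above 0 with nicotine and below 0 with PNU and MLA, and Bhlhe40 lies near -0.61 and -0.66 with PNU and MLA and at -0.05 with nicotine.

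Of 31 other genes of the clock and its output, 26 were measured, and 22 had a mean level of at least 50. Among these 22, 7 ranged 1.5-fold or more, close to the 31.9% of all genes. Nfil3, a repressor that competes with DBP for D-boxes, ranged 2.01-fold (1.80 to 2.25), from 475 in nicotine 12 h to 955 in PNU 3 h. Nampt, an enzyme of NAD synthesis under clock control in the mouse, ranged 1.92-fold (1.79 to 2.07), from 1054 in nicotine 1 h to 2027 in DMSO 12 h. Ciart, a repressor of the loop, ranged 1.91-fold (1.51 to 2.44), from 98.9 in nicotine 12 h to 189 in PNU 1 h. All 3 were lowest in a nicotine library, as were Tef and Klf9. Nr1d1 was lowest in MLA 1 h and Usp2 in PNU 8 h. The share of all genes lowest in a nicotine library was not counted. Without PNU 3 h and nicotine 1 h, Nfil3 ranged 1.36-fold, Nampt 1.51-fold and Ciart 1.91-fold.

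Nr1d1 encodes REV-ERBα, the partner of Nr1d2, and ranged 1.66-fold (1.26 to 2.19), lowest in MLA 1 h at 86.2 and highest in nicotine 1 h at 143. Nr1d2 was lowest in nicotine 1 h, but Nr1d1 was close to its level there in PNU 3 h (139.5), PNU 30 min (137.8) and PNU 12 h (137.3). In PNU 1 h, where Nr1d2 was highest, Nr1d1 was at 130.0. Klf9 ranged 1.61-fold (1.38 to 1.88), Tef, a relative of Dbp, 1.58-fold (1.42 to 1.75), and Usp2, a deubiquitinating enzyme, 1.57-fold (1.13 to 2.21). Without PNU 3 h and nicotine 1 h, Klf9 ranged 1.22-fold, Tef 1.41-fold, Usp2 1.43-fold and Nr1d1 1.6-fold. The kinases that mark PER proteins for turnover, Csnk1d and Csnk1e, ranged 1.46-fold and 1.39-fold. In the contrasts over 7 libraries, 0 of the 26 passed a limma adjusted p of 0.05. Their median log2 difference was -0.02 between times and -0.08 against the vehicle. Rorb, Npas2, Hlf and Sirt1 were not analysed here.

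For each member with a range of 1.5-fold or more, the 3 genes of most similar pattern were taken by Pearson correlation of log2 levels over the 10 libraries, among 11113 genes. These correlations are descriptions over 10 points that share libraries and depth. Among the genes most like Bhlhe40 were Lss (lanosterol synthase) at r = 0.98 and Srebf1 (SREBP-1) at 0.97. Without PNU 3 h and nicotine 1 h both values were 0.98. Lss went from 873 in DMSO 12 h to 361 in nicotine 1 h, a range of 2.42-fold, and Srebf1 had a range of 1.88-fold, narrower than that of Bhlhe40. Nr1d2 was most like Aldh3a2 (a fatty aldehyde dehydrogenase), Tpp1 (a lysosomal peptidase) and Pdha1 (a pyruvate dehydrogenase subunit), each at r = 0.98. Per3 was most like Focad at 0.94, and Npas1 and Pcca at 0.89.

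**Figure D5:**
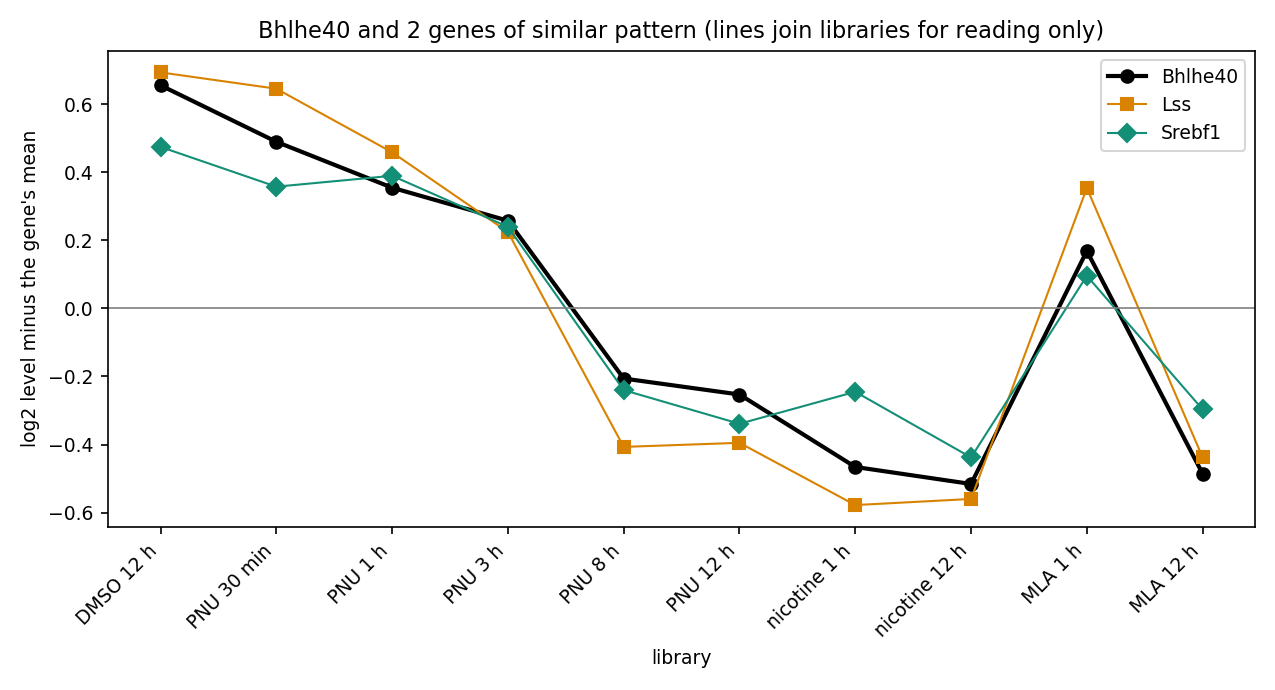
Log2 level minus the gene's mean over the 10 libraries for Bhlhe40 and for Lss and Srebf1, whose patterns are among those most like it (r = 0.98 and 0.97); lines only join the points of a gene. All are above their mean in DMSO 12 h, MLA 1 h and PNU up to 3 h, and below it in PNU 8 h, nicotine and the 12 h compound libraries.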

How the data were processed

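Polyadenylated RNA was sequenced from 1 library per condition. Trimmomatic 0.36, STAR 2.5.2b, featureCounts of Subread 1.5.2 and DESeq2 are named, per the submitters' processing notes. Strandedness, build and annotation were not given in the sources used here. There are 39 deposited tables, 1 per pair of libraries, with a level per library that is a signal, never negative: reads over a size factor set per table. Each deposited table also holds a log2 fold change and p-values, which compare 1 library with 1; the lowest adjusted p-value in the authors' deposited tables was 0.999715 and they were not used further. Library numbers in the columns are tied to samples by the file records, except that of PNU 12 h, assigned because it was the sample left.

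Values in a column are multiples of what 1 read is worth, and division by it gave read numbers: 100% came out whole within 0.01. Genes below a mean level of about 8.32 to 10.5 in a pair are not listed. Levels were scaled over all libraries by the median of ratios. A difference in size means at least 1.5-fold with a mean level of at least 50. Intervals are exact Poisson for levels and Clopper-Pearson for folds, at 95%; reads are not independent molecules. limma 3.58.1 (R 4.3.3; trend) was fitted to log2(level + 1) of 13323 genes (mean level 10 or more) in 7 libraries, with compound, time and a DMSO term, leaving 2 residual degrees of freedom, and Benjamini-Hochberg adjustment over all genes. Its differences are on that log2 scale, which understates low genes. It was run on simulated data with the same time difference in every compound, where its mean estimates between times were checked. That check does not cover which genes pass in the real data.

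The text names the 10 members, the other clock genes with a range of at least 1.5-fold, and the 3 genes most like each such member, except for some that are not reported here; Egr1, Csnk1d, Csnk1e and the libraries' extremes were picked after their values were seen. Members and lists were chosen with earlier results of these data known. Alternatives were TMM scaling, total reads, pseudocount 10, other minimum levels, no compound term, 2-fold, and leaving out libraries.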

Additional observations from a re-analysis of the deposited data

Results flagged for a closer look

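The difference between 12 h and 1 h went opposite ways in different compounds for 3 clock genes, with 1 library behind each value, and the difference between compounds was not tested. For Nr1d2 the log2 difference was 0.64 with nicotine, -0.36 with PNU and -0.33 with MLA, so nicotine less PNU was 1.00 and MLA less nicotine was -0.97. For Clock it was 0.55 with nicotine, -0.14 with PNU and -0.21 with MLA, so nicotine less PNU was 0.69 and MLA less nicotine was -0.76. For Per3 it was -0.48 with PNU and 0.41 with MLA, and MLA less PNU was 0.89.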

How the results depend on the processing

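The call counts of the 3 contrasts were 0 with TMM scaling, scaling by total reads, pseudocount 10, a minimum level of 50 and no minimum. Without the compound term 3 genes passed against the vehicle. In 170 member values under these settings and that one, 169 kept their direction and side of the threshold. With scaling by total reads Per2 between agonists and MLA went from 0.01 to -0.0028 on the log2 scale. The minimum level and the compound term cannot change a member's estimate here, only its interval and p-value, so direction was fixed under those settings. Leaving out each of the 6 compound libraries gave 0 to 460 genes between times, 0 to 3489 between agonists and MLA and 0 to 1537 against the vehicle. The highest counts came without a nicotine library, where limma took the spread as common to all genes. Of 180 member values, 131 kept direction and side, 11 came to pass the threshold and 38 turned direction. Between times the leave-out values ranged from -0.08 to 0.02 for Per1, -0.12 to 0.03 for Per2, -0.17 to 0.28 for Per3, -0.12 to 0.03 for Cry1, -0.18 to 0.21 for Clock and -0.35 to 0.15 for Nr1d2. Between agonists and MLA they ranged from -0.14 to 0.16 for Per2, -0.05 to 0.52 for Per3, -0.2 to 0.06 for Cry2, -0.37 to 0.05 for Clock, -0.33 to 0.16 for Nr1d2 and -0.22 to 0.1 for Bhlhe40. Against the vehicle they ranged from -0.14 to 0.0042 for Per2, -0.34 to 0.1 for Per3, -0.08 to 0.05 for Arntl, -0.11 to 0.27 for Clock and -0.47 to 0.03 for Nr1d2. Where a 12 h library was left out, the fit took that compound at 12 h from its 1 h library and the shared time difference. Between times, leaving out either library of a compound gives the same estimate. Against the vehicle, leaving out a 1 h library cannot change the estimate. The 180 values are therefore not separate checks. With 2-fold as the size rule 4 member values between pairs passed in place of 27. The share of all genes was not pooled over pairs at 2-fold, so that count has no background beside it. Without PNU 3 h and nicotine 1 h, a choice made after the data were seen, 15 did, over 28 pairs in place of 45. Causes were not tested. The planned edgeR test was not run. The compound term compares times within a compound; the labels give no replicate numbers for any other pairing. Nothing here measures the spread between cultures.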

Other observations

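Genes that respond to glucocorticoid, a hormone that sets clocks in cultured cells, were measured for 6 of 8 on the list, 5 of them at a mean level of at least 50. Their summed level was highest in DMSO 12 h at 7364 and lay between 5831 and 6607 in the other 9 libraries. Errfi1, an inhibitor of the EGF receptor, ranged 1.64-fold (95% counting interval 1.51 to 1.78), from PNU 1 h up to DMSO 12 h. Sgk1, a kinase, ranged 1.59-fold (1.51 to 1.68), from nicotine 1 h up to DMSO 12 h. Fkbp5 and Klf9 had another order: Fkbp5 went from 1745 in nicotine 12 h to 2560.0 in nicotine 1 h, with 1917 in DMSO 12 h. Klf9 was at 441 in PNU 3 h and 334 in DMSO 12 h. Tsc22d3, a defining gene of this response, ranged 1.29-fold (1.10 to 1.51). Against DMSO 12 h, 1 of the 5 was at least 1.5-fold lower with PNU, 1 with nicotine and 0 with MLA at 12 h, where 1.7%, 1.26% and 0.992% of genes were.

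The library with the most extreme member values was not the same for each gene. PNU 30 min and PNU 1 h each held the highest level of 3 of the 10 members, and nicotine 12 h the lowest of 4 and the highest of 2. The share of all genes with their extremes in these libraries was not counted, so these numbers describe the members only.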
